A study of Mus musculus with 9 samples.

Results

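Phosphorylation of the α subunit of eIF2, the factor that brings the initiator tRNA to the ribosome, is the point at which the integrated stress response begins. A family of paralogous kinases places the phosphate and a pair of regulatory subunits of protein phosphatase 1 direct its removal. The transcript levels of these enzymes in brown adipose tissue are described here through 8 genes chosen by name: the kinases Eif2ak1 (HRI), Eif2ak2 (PKR), Eif2ak3 (PERK) and Eif2ak4 (GCN2), the phosphatase subunits Ppp1r15a (GADD34) and Ppp1r15b (CReP), the transcription factor Atf4 and the GCN2 inhibitor Impact. All 8 were listed among the 16006 genes present in every deposited table.

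RNA was sequenced from brown adipose tissue of 9 mice, 3 in each of 3 groups. Wild-type mice spent 8 h at 4 °C (WT Cold) or stayed at 23 °C (WT RT), and mice with a whole body deletion of Gcn2 spent 8 h at 4 °C (GCN2 KO Cold). The title of 1 of the 3 GCN2 KO Cold samples names both GCN2 KO and WT, so it was grouped by its genotype label, GCN2 KO, and its library cannot be singled out among the 3. Per the study's methods, all were adults on the C57Bl/6J background, reared at room temperature, housed singly beforehand, and sampled at a shared hour of the light phase. Both sexes were used, and no column was tied to a sex or to an individual mouse. GCN2 KO mice at room temperature are not among the 9 samples, so the effect of cold in GCN2 KO and the interaction of genotype with cold could not be tested.

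The kinases answer to different conditions. HRI is inhibited by heme and also relays mitochondrial stress, PKR binds double-stranded RNA and is itself an interferon-stimulated gene, PERK senses unfolded protein in the endoplasmic reticulum, and GCN2 binds uncharged tRNA and stalled ribosomes. Phosphorylated eIF2 inhibits its exchange factor eIF2B, which lowers general translation while raising the translation of Atf4 mRNA. ATF4 then acts on genes of amino acid transport and synthesis and, with CHOP, on Ppp1r15a, whose product closes the loop by dephosphorylating eIF2α, whereas Ppp1r15b is the constitutive subunit. Transcript levels do not report the phosphorylation of any of these proteins.

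Promoter sequence was available from RefSeq (GRCm38.p6) for 6 of the 8 genes, as a window of 300 bases from 250 before to 50 after the start site. Windows were searched on both strands for the core of the interferon-stimulated response element (GAAANNGAA), the cAMP response element (TGACGTCA) and the core of the C/EBP-ATF response element bound by ATF4 (TGATGNAA). These letters occurred in 8.56%, 1.79% and 3.97% of 32851 mouse promoter windows. Matches were found in the 2 genes below, which had the largest fall and, after Atf4, the largest rise among the 8 genes in WT Cold. The windows of Eif2ak1, Eif2ak3, Eif2ak4 (2 entries) and Atf4 held none of these letters. A match is a description of the letters and not evidence that a factor bound there. The stretch of Eif2ak2 is on the minus strand at chr17:78882532-78882561, in the 5′ part of its transcript, and the capitals mark 2 overlapping matches to the interferon element that begin 19 and 25 bases after the start site. The stretch of Ppp1r15a is on the minus strand at chr7:45526269-45526518 and covers the 250 bases before the start site, with a match to the interferon element beginning at -220 and the cAMP element at -12 in capitals.
Eif2ak2: ccgccggGAAAACGAAACAGAAgagaaccg
Ppp1r15a: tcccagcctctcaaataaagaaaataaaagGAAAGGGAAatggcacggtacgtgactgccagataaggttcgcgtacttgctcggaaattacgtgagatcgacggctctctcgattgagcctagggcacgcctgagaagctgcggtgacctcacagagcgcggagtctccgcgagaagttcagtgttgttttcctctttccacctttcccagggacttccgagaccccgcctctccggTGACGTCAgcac

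Listed genes took between 27055469 and 30766437 reads per library, and 10 of 10 brown adipocyte markers were measured in all of them. Ucp1, the uncoupling protein of brown fat, had mean levels of 4545 CPM in WT RT, 8612 CPM in WT Cold and 9580 CPM in GCN2 KO Cold. The markers did not all rise, and Adrb3 had 288, 123 and 89.7 CPM. By the limma test described below, 5 of the 10 were higher and 2 lower in WT Cold than in WT RT, against 13.6% and 14.1% of all genes. For GCN2 KO Cold these were 6 and 1, against 16.4% and 17.8%. The summed level of skeletal muscle markers ranged from 2135 to 2561 CPM in WT RT, from 1985 to 3287 CPM in WT Cold and from 283 to 1117 CPM in GCN2 KO Cold, and that of erythroid markers from 260 to 345 CPM, from 573 to 2281 CPM and from 1085 to 2083 CPM. Macrophage markers summed to between 307 and 460 CPM in WT RT, between 167 and 258 CPM in WT Cold and between 119 and 190 CPM in GCN2 KO Cold. The part of these other cells in the values of the 8 genes was not tested, and in bulk tissue fewer cells of a type and less RNA per cell cannot be told apart. Codes of the WT RT libraries begin with other letters than codes of the cold libraries, and the cold libraries of both genotypes share theirs. What the letters stand for is not given in the sources used here, and a difference between these code series cannot be told apart from that between cold and room temperature.

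Levels are given as normalised reads, which are reads divided by a size factor set over all 9 libraries, with libraries called A, B and C within each group in the order of their codes. Group differences are log2 fold changes from limma on log2(value + 1), fitted to all genes of a table, with 95% confidence intervals and Benjamini-Hochberg adjusted p. This scale slightly understates the change of low genes. Since nothing ties a column to a mouse, p-values measure the spread between these libraries.

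**Figure D1:**
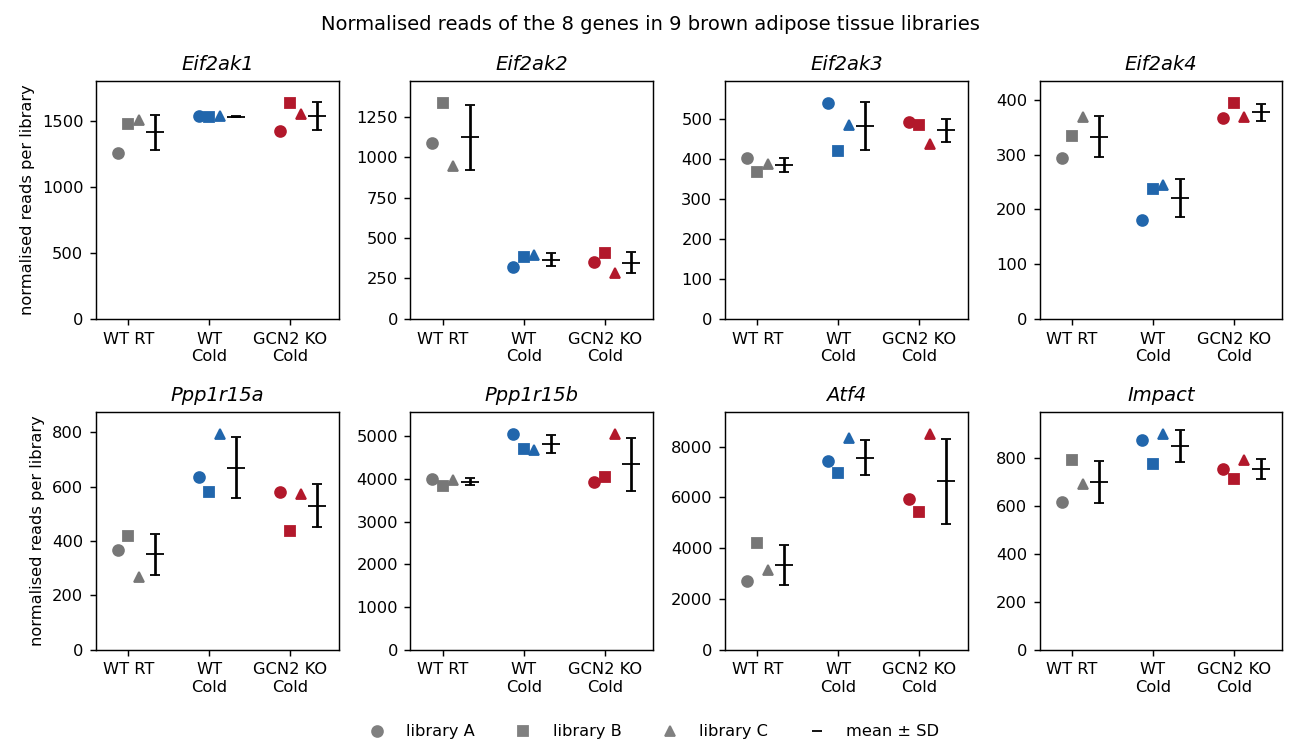
Normalised reads of each of the 8 genes in the 9 libraries (circles, squares and triangles for libraries A, B and C) with the group mean and SD (bars at the right of each group); the y axis starts at 0 in each panel and its range differs between genes. Eif2ak2 lies between 943 and 1338 in WT RT and at or below 409 in all 6 cold libraries, while Atf4 lies at or above 5431 in the cold libraries and at or below 4214 in WT RT.

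Between WT Cold and WT RT, 5 of the 8 genes passed an adjusted p of 0.05. Atf4, Ppp1r15a and Ppp1r15b rose and Eif2ak2 and Eif2ak4 fell, while Eif2ak1, Eif2ak3 and Impact did not pass the test. The comparison asks how the enzymes that set eIF2α phosphorylation differ in transcript level after 8 h of cold. Of all 16679 genes tested, 13.6% were called higher and 14.1% lower in WT Cold, against 3 and 2 of the 8. With reads scaled to the library total in place of size factors, the median of all genes shifted to -0.08 and the calls moved from 2268 higher and 2356 lower to 1570 higher and 2905 lower. The study's own rule adds an absolute log2 fold change over 1 to an adjusted p from DESeq2. With limma's adjusted p in its place, it was met by Eif2ak2 and Atf4 and by 8.14% of all genes. The libraries of the groups did not overlap for 5 of the 8 genes that were higher and 2 that were lower in WT Cold. Of all genes, 22.8% were apart and higher and another 22.8% apart and lower.

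Eif2ak2, the double-stranded RNA sensor on chromosome 17 (GRCm38, 78852564 to 78882573, minus strand), had 1086, 1338 and 943 normalised reads in the WT RT libraries, 319.6, 382 and 397 in WT Cold, and 350.3, 409 and 283 in GCN2 KO Cold. Every cold library lay below every WT RT library, and both cold groups overlapped. The means were 1122 ± 199.8 (SD, n = 3), 366 ± 40.9 and 347 ± 63.2. Eif2ak2 fell by 1.60 on the log2 scale in WT Cold against WT RT (95% interval -1.94 to -1.26, limma adjusted p = 0.00049), to 0.330 of the WT RT level. This was the largest absolute change among the 8 genes, and the call held in 14 of 14 alternative fits.

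Atf4, the bZIP factor made more efficiently when eIF2α is phosphorylated, lies on chromosome 15 (80255184 to 80257541, plus strand). It had 2700.5, 4214 and 3121 normalised reads in WT RT and 7423, 6953 and 8320.0 in WT Cold. The lowest cold library exceeded the highest WT RT library. Its log2 fold change was 1.20 (95% interval 0.84 to 1.56, limma adjusted p = 0.00176), a 2.30-fold rise that was called in 14 of 14 alternative fits. Atf4 also varied more within WT RT than most genes did, with an SD of 0.33 on the log2 scale against a median of 0.115 over 10527 genes. It was not alone in this, as Ppp1r15a had an SD of 0.33 and Eif2ak2 of 0.25 in WT RT.

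Of the phosphatase subunits, Ppp1r15a, the inducible one, is a short gene on chromosome 7 (45522916 to 45526268, minus strand). It had 365.1, 419 and 268 normalised reads in WT RT and 634, 581 and 795 in WT Cold, with no overlap. The log2 fold change was 0.95 (95% interval 0.51 to 1.38, limma adjusted p = 0.00901), or 1.93-fold, and it was called in 14 of 14 alternative fits. Ppp1r15b, the constitutive subunit on chromosome 1 (133131143 to 133139783, plus strand), had 3989.6, 3844 and 3981 normalised reads in WT RT and 5064, 4708 and 4688 in WT Cold. Its groups did not overlap either, but the rise was small. The log2 fold change was 0.29 (95% interval 0.14 to 0.45, limma adjusted p = 0.0154), or 1.23-fold. The call of Ppp1r15b held in 9 of 14 alternative fits. It was lost without the trend (adjusted p = 0.0605), under library-total scaling (0.0702) and with all 3 groups fitted on log2(CPM + 1) (0.132). It was also lost without WT Cold library A (0.0616) and without WT RT library B (0.0544). Exons of Gm26616 on the opposite strand overlap 11.4% of the exon bases of Ppp1r15b, with 11 to 49 reads assigned to Gm26616 itself. How reads in the shared bases were assigned was not tested.

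Eif2ak4, the amino acid sensor on chromosome 2, had 294, 334 and 369 normalised reads in WT RT and 181, 238 and 245 in WT Cold, so every WT Cold library lay below every WT RT library. Its log2 fold change was -0.59 (95% interval -0.96 to -0.22, limma adjusted p = 0.0294), or 0.665 of the WT RT level. The call held in 9 of 14 alternative fits, had an adjusted p of 0.0502 without the trend, and was lost on leaving out any of 4 libraries, with adjusted p of 0.0816 without WT Cold A, 0.0590 without WT Cold B, 0.0806 without WT RT B and 0.0972 without WT RT C.

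The other 3 genes had intervals close to or across 0. Eif2ak3, the endoplasmic reticulum kinase on chromosome 6 (70844515 to 70905245, plus strand), had 403, 368 and 386 normalised reads in WT RT and 540.4, 419.8 and 484 in WT Cold, with a log2 difference of 0.32 (95% interval 0.04 to 0.60, limma adjusted p = 0.0893). Its WT Cold libraries were all above its WT RT libraries. Impact, which competes with GCN2 for its activator GCN1, had 617, 790.1 and 689 normalised reads in WT RT and 875, 774 and 900.4 in WT Cold, which overlapped. Its log2 difference was 0.29 (95% interval 0.02 to 0.56, limma adjusted p = 0.1001). Eif2ak1, the heme-regulated kinase on chromosome 5 (143817788 to 143904251, plus strand), had 1261, 1477 and 1509.8 normalised reads in WT RT and 1538, 1529 and 1539 in WT Cold. Those 3 cold libraries had an SD of 5.52 normalised reads, and the log2 difference from WT RT was 0.13 (95% interval -0.08 to 0.33, limma adjusted p = 0.325). Exons of Aimp2 on the opposite strand overlap 8.59% of the exon bases of Eif2ak1, with 169 to 319 reads of its own, and those of Gm43292 overlap 8.05% of Eif2ak3.

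**Figure D2:**
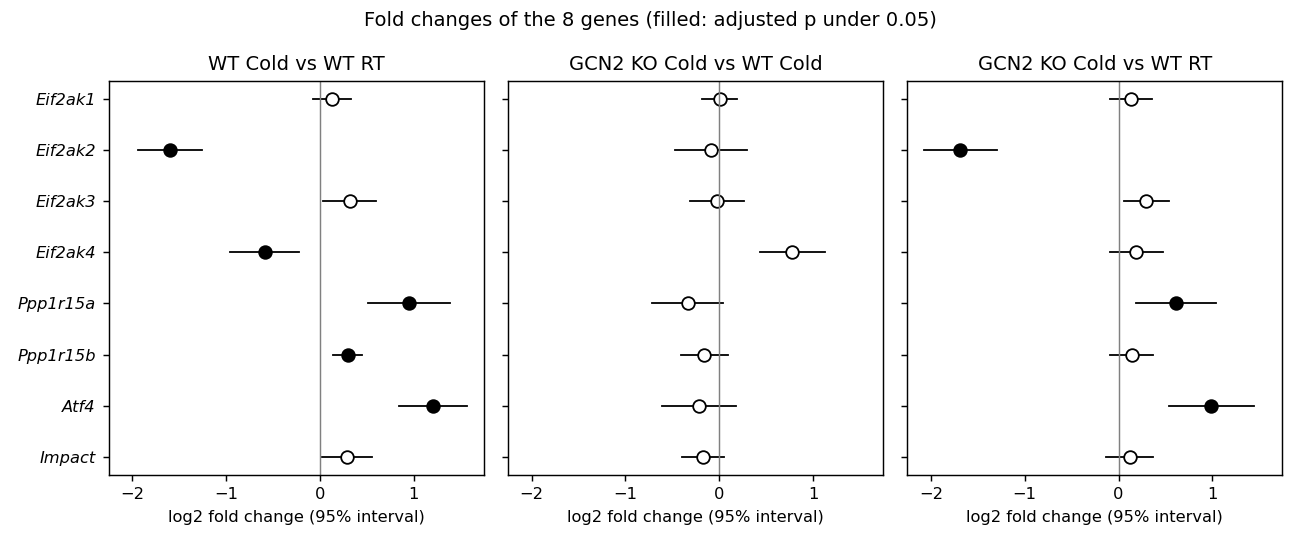
Log2 fold change of each gene in the 3 comparisons, with 95% confidence intervals from limma; filled points passed an adjusted p of 0.05 and the vertical line marks no difference. Eif2ak2 lies at -1.60 and -1.68 against WT RT and at -0.09 between both cold groups, and Eif2ak4 is the gene farthest from 0 between both cold groups, at 0.78.

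Genotype was compared in the cold, where no gene of the 8 passed the limma test. With GCN2 KO Cold set against WT Cold, 0 of the 8 were higher and 0 lower at an adjusted p under 0.05. Of the 16312 genes tested, 0.178% were higher and 0.227% lower, and 0.257% met the study's rule with limma's adjusted p. With that of DESeq2, the rule called 26 genes higher and 183 lower. At an unadjusted p under 0.05 there was 1 of the 8, Eif2ak4, a share no higher than the 15.3% of all genes. DESeq2 on the recovered reads called 1 of the 8, again Eif2ak4, against 3.22% of all genes. The edgeR test called 0 against 0.270%, and a limma fit of all 3 groups, on log2(CPM + 1), called 1 against 2.67%. Scaling to the library total shifted the median of all genes to -0.12 and moved the calls of all genes from 29 higher and 37 lower to 11 higher and 52 lower. The libraries of the groups did not overlap for 1 gene that was higher, Eif2ak4, and 1 that was lower, Ppp1r15a, against 11.3% and 10.7% of all genes.

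The targeted gene had no reduced total in the GCN2 KO libraries. Eif2ak4 had 367, 395 and 369 normalised reads in those labelled GCN2 KO Cold, above all 3 WT Cold libraries and within or above the range of WT RT. Its difference from WT Cold had a 95% interval from 0.43 to 1.12 on the log2 scale. The adjusted p was 0.0932 from limma in the 2-group fit, 0.0914 from edgeR, 0.0028 from DESeq2 and 0.0356 from limma with all 3 groups. The fit of all 3 groups was on log2(CPM + 1), so it also changed the scaling and the value added before the logarithm. There the log2 difference was 0.60, against 0.78 in the 2-group fit. The total is summed over all 7457 exon bases of Eif2ak4 (GRCm38, 118388618 to 118475234, plus strand) and does not show which exons were read, so that it does not check the label. No annotated exon of another gene overlapped it.

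Ppp1r15a had 579, 439 and 571 normalised reads in GCN2 KO Cold, all below WT Cold, where the lowest library had 581. Its log2 difference was -0.34 with an interval from -0.71 to 0.04 (limma adjusted p = 0.378). Atf4 had 5926, 5431 and 8513 normalised reads, of which the highest exceeded all WT Cold libraries, and its log2 difference was -0.22 (95% interval -0.61 to 0.18, limma adjusted p = 0.598). The SD of Atf4 on the log2 scale was 0.34 in GCN2 KO Cold and 0.13 in WT Cold, so its 3 libraries were spread more widely in the former. Ppp1r15b was likewise spread, with 3924, 4056 and 5059 normalised reads.

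For the other genes the intervals show what size of difference these libraries leave possible. Between both cold groups, the interval ran from -0.41 to 0.09 for Ppp1r15b, from -0.40 to 0.05 for Impact, from -0.47 to 0.30 for Eif2ak2, from -0.31 to 0.26 for Eif2ak3 and from -0.18 to 0.19 for Eif2ak1, all on the log2 scale. A p above the threshold does not show that these levels were alike, and a doubling of any of these genes lay outside its interval. Impact, on chromosome 18 (12955852 to 12992950, plus strand), had 753, 712 and 792 normalised reads in GCN2 KO Cold, against 850 ± 66.9 (SD, n = 3) in WT Cold. Eif2ak3 had 491, 485 and 438, and Eif2ak1 had 1427, 1641 and 1555. Each of these 3 genes overlapped between both cold groups.

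Against WT RT, the libraries labelled GCN2 KO Cold differ in genotype and in temperature at the same time. Atf4 and Ppp1r15a were higher and Eif2ak2 was lower at an adjusted p under 0.05, that is 2 and 1 of the 8, against 16.4% and 17.8% of the 16560 genes tested. On limma's adjusted p, Eif2ak2 alone met the study's rule, which 10.6% of all genes met. Scaling to the library total shifted the median of all genes from 0.01 to -0.19 and moved the calls of all genes from 2713 higher and 2944 lower to 1486 higher and 4820 lower. The groups did not overlap for 3 of the 8 genes that were higher and 1 that was lower, against 23.7% and 25.5% of all genes.

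Eif2ak2 fell by 1.68 on the log2 scale in that comparison (95% interval -2.07 to -1.30, limma adjusted p = 0.000371), to 0.311 of the WT RT level. Atf4 rose by 0.99 (95% interval 0.53 to 1.44, adjusted p = 0.00632), or 1.98-fold, and both calls held in 14 of 14 alternative fits. Ppp1r15a rose by 0.61 (95% interval 0.19 to 1.04, adjusted p = 0.0340), or 1.53-fold. That call held in 7 of 14 alternatives. It was lost without GCN2 KO Cold library A (adjusted p = 0.0853) or C (0.0966), without WT RT library A (0.0680) or C (0.0921), and under library-total scaling (0.151).

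The other genes did not pass the test against WT RT. The log2 differences were 0.29 for Eif2ak3 (adjusted p = 0.0615), 0.19 for Eif2ak4 (0.260), 0.14 for Ppp1r15b (0.327), 0.13 for Eif2ak1 (0.336) and 0.12 for Impact (0.442), all from limma. Eif2ak3 was the single gene among these 5 whose libraries did not overlap, and with genes of a mean below 50 left out its adjusted p was 0.0485. Under scaling to the library total the differences of Eif2ak1, Eif2ak4, Ppp1r15b and Impact changed sign. The comparisons against WT RT share the WT RT libraries, so their values are given side by side and were not set against each other by a test.

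Levels of different genes were compared as CPM per kilobase of exon, a scale that divides by gene length. In WT RT, Atf4 had the highest level of the 8 at 52.5 ± 13.2 (SD, n = 3) CPM per kilobase, followed by Ppp1r15b at 26.0 ± 0.853, Eif2ak1 at 9.21 ± 0.762, Eif2ak2 at 8.13 ± 1.70, Impact at 5.03 ± 0.698, Ppp1r15a at 4.43 ± 1.11, Eif2ak3 at 2.36 ± 0.134 and Eif2ak4 at 1.64 ± 0.140. Neighbours in that order overlapped between libraries for Eif2ak1 and Eif2ak2 and for Impact and Ppp1r15a, and were apart otherwise. The effector of the pathway was thus at the 94.6th percentile of 15973 genes in WT RT and the GCN2 kinase at the 36.7th.

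In WT Cold the order of the 8 genes on the same scale was Atf4 at 112 ± 8.60, Ppp1r15b at 30.1 ± 1.96, Eif2ak1 at 9.45 ± 0.217, Ppp1r15a at 7.95 ± 1.18, Impact at 5.78 ± 0.442, Eif2ak3 at 2.79 ± 0.385, Eif2ak2 at 2.49 ± 0.230 and Eif2ak4 at 1.03 ± 0.144 CPM per kilobase. Only Eif2ak3 and Eif2ak2 overlapped among neighbours in this order. Eif2ak2 stood at the 73.4th percentile of all genes in WT RT, at the 48.2nd in WT Cold and at the 48.0th in GCN2 KO Cold, and Ppp1r15a at the 60.1st, the 73.8th and the 69.1st. In GCN2 KO Cold the order was that of WT Cold, with means from 90.3 ± 22.3 for Atf4 to 1.63 ± 0.0615 for Eif2ak4, and both Ppp1r15a with Impact and Eif2ak3 with Eif2ak2 overlapped.

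Summed over the 4 kinases, transcript levels were 20.3, 23.8 and 19.9 CPM per kilobase in WT RT, 16.0, 15.6 and 15.7 in WT Cold, and 14.6, 16.1 and 14.5 in GCN2 KO Cold. The sum was lower in every cold library than in every WT RT library, also with size factors in place of library totals. Between the means of WT Cold and WT RT the sum differed by -5.57 CPM per kilobase, to which Eif2ak2 contributed -5.64, Eif2ak4 -0.61, Eif2ak1 0.24 and Eif2ak3 0.43.

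The share of each kinase in that sum is a description of transcripts, not of kinase activity. Eif2ak2 made up 39.2%, 41.7% and 32.7% of kinase transcripts in WT RT, 14.0%, 16.8% and 16.8% in WT Cold, and 15.2%, 15.9% and 12.2% in GCN2 KO Cold. Eif2ak1 was the most abundant kinase transcript in all but 1 of the 9 libraries and made up 41.1%, 41.5% and 47.2% in WT RT, 60.6%, 60.5% and 58.7% in WT Cold, and 55.8%, 57.5% and 60.7% in GCN2 KO Cold. In WT RT library B the share of Eif2ak2 was slightly above that of Eif2ak1. Eif2ak3 ranged from 9.72% to 12.3% in WT RT and from 15.6% to 20.0% over both cold groups.

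**Figure D3:**
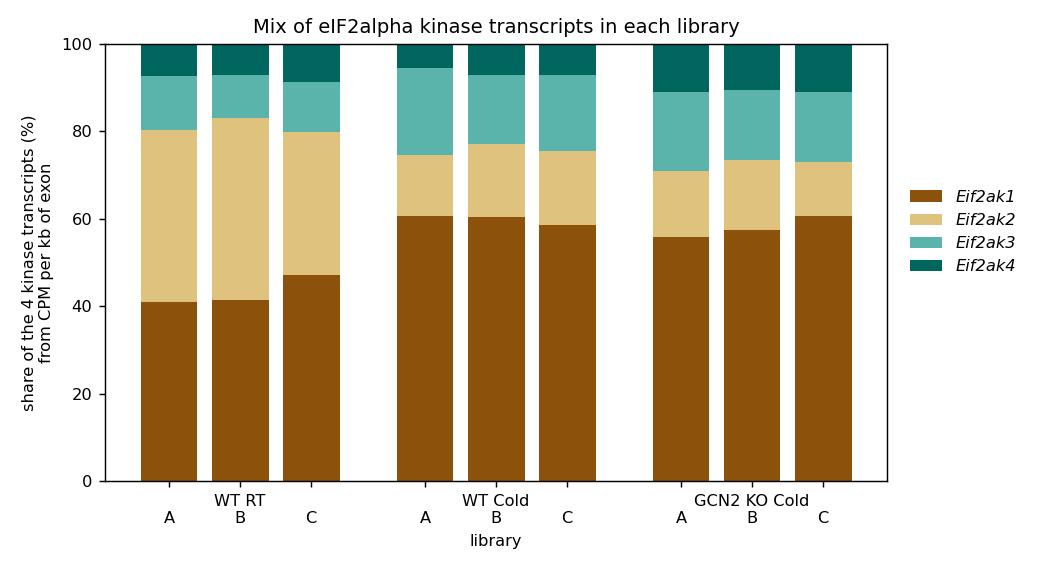
Share in percent of each of the 4 kinases in their summed CPM per kilobase of exon, as stacked bars for the 9 libraries, with a colour for each kinase. The Eif2ak2 segment spans 32.7% to 41.7% in WT RT and 12.2% to 16.8% in the 6 cold libraries, where the Eif2ak1 segment spans 55.8% to 60.7%.

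Eif2ak4 was the least abundant kinase transcript in all 3 groups. It made up 7.30%, 7.14% and 8.78% in WT RT, 5.42%, 7.15% and 7.10% in WT Cold, and 10.9%, 10.5% and 11.0% where the label was GCN2 KO Cold. The last 3 lay above the other 6. Relative to its inhibitor, Impact had 3.05, 3.43 and 2.71 times the level of Eif2ak4 per length in WT RT, 7.02, 4.73 and 5.35 times in WT Cold, and 2.98, 2.62 and 3.12 times where the label was GCN2 KO Cold.

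Between the phosphatase subunits, Ppp1r15b had 5.74, 4.82 and 7.80 times the level of Ppp1r15a per length in WT RT, 4.19, 4.26 and 3.09 times in WT Cold, and 3.56, 4.86 and 4.65 times in GCN2 KO Cold. The constitutive subunit was thus the more abundant transcript in all 9 libraries, and its ratio was lower in each WT Cold library than in each WT RT library. GCN2 KO Cold overlapped both other groups in this ratio.

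Partners and targets of the 8 genes were read from gene lists that were chosen with earlier results of these data known, so their directions are a description. Of 8 subunits of eIF2, the substrate, and eIF2B, its exchange factor, 3 were higher and 0 lower in WT Cold than WT RT, against 13.6% and 14.1% of all genes, and their median log2 difference was 0.24, beside 0.00 over all genes. The largest rises among the called were in Eif2b3 (0.81), the γ subunit of eIF2B, and Eif2s2 (0.37), the β subunit of eIF2. In GCN2 KO Cold against WT RT, 6 were higher and 0 lower, against 16.4% and 17.8% of all genes. Under library-total scaling the counts were 1 higher and 0 lower in both comparisons.

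Of 11 regulators of the kinases and catalytic subunits of protein phosphatase 1, 3 were higher and 4 lower in WT Cold than in WT RT, against 13.6% and 14.1% of all genes, with a median of -0.07. Ppp1cb (0.48), a catalytic subunit that both GADD34 and CReP recruit, and the adaptor Nck1 (0.40) rose. Adar (-0.92), the RNA editing enzyme that limits PKR activation, and Prkra (-0.76), the PKR activator PACT, fell. Against WT RT, GCN2 KO Cold had 3 higher and 6 lower, beside 16.4% and 17.8% of all genes, among them Ppp1cb (0.46), Tarbp2 (0.38), a PKR inhibitor, Adar (-1.35) and Prkra (-0.63). Under library-total scaling there was 1 regulator higher and 4 lower in WT Cold, and 1 higher and 6 lower in GCN2 KO Cold, each against WT RT.

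Interferon-stimulated genes, the class to which Eif2ak2 belongs, were lower than in WT RT in 27 of 27 cases in either cold group, beside 14.1% and 17.8% of all genes, with a median log2 fold change of -2.29 for WT Cold and -2.53 for GCN2 KO Cold. Ifit3 (-3.74 and -3.91) and Mx1 (-3.33 and -3.66), both antiviral effectors, had the largest falls. As log2(normalised reads + 1) minus the WT RT mean, the median of the 27 genes was -0.09, 0.54 and -0.50 in WT RT libraries A, B and C, where Eif2ak2 was at -0.03, 0.27 and -0.24. In WT Cold the median was -2.38, -2.28 and -2.19 with Eif2ak2 at -1.79, -1.54 and -1.48. The GCN2 KO Cold libraries had medians of -2.53, -2.49 and -2.51 with Eif2ak2 at -1.66, -1.44 and -1.97. Eif2ak2 was thus less far below WT RT than the median of these genes in every cold library. Of 6 macrophage markers, 4 were called lower than WT RT for WT Cold and 5 for GCN2 KO Cold. In WT Cold, Cd163 went the other way, and limma did not call it while DESeq2 called it higher (0.88, adjusted p = 0.00584), from a mean of 23.9 to one of 41.4 CPM. The part of these markers in the result was not tested.

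ATF4 targets, 23 genes of amino acid metabolism and stress signalling, had 10 members higher and 2 lower in WT Cold than in WT RT, the median being 0.63 on the log2 scale, against 13.6% and 14.1% of all genes called. Among those called by limma, Ddit4 (1.69), an inhibitor of mTORC1, and Slc3a2 (1.60), the heavy chain of amino acid exchangers, had the largest rises, whereas the serine synthesis enzymes Phgdh (-0.96) and Psat1 (-0.56) fell. The hormone gene Fgf21, at 1.66, was not called by limma (adjusted p = 0.131), and DESeq2 called it at 2.35 (adjusted p = 0.00411). In GCN2 KO Cold against WT RT, 7 were higher and 5 lower, beside 16.4% and 17.8% of all genes, with a median of 0.18. Library-total scaling left 6 higher and 2 lower targets in WT Cold, with a median of 0.54, and 4 higher and 5 lower in GCN2 KO Cold, with a median of -0.02. Slc3a2 (1.34) and Ddit4 (1.26) rose and Phgdh (-1.72) and Psat1 (-1.22) fell there too.

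Between both cold groups, 0 of the 23 ATF4 targets passed the limma test and 7 were lower at an unadjusted p under 0.05, against 7.49% of all genes, with a median of -0.36 and 20 of 23 below 0. DESeq2 called 2 of them lower, against 1.80% of all genes. These were the amino acid transporter Slc7a5 (-1.13, adjusted p = 0.00170) and the folate enzyme Mthfd2 (-0.88, adjusted p = 0.0447), and edgeR called 0. Per library, the median of the targets as log2(normalised reads + 1) minus the WT RT mean was 0.58, 0.36 and 0.57 in WT Cold and 0.083, 0.12 and 0.44 in GCN2 KO Cold. These overlapped, library C of GCN2 KO Cold lying above library B of WT Cold. As log2(CPM + 1) they were 0.37, 0.25 and 0.45 against -0.09, -0.08 and 0.22, without overlap. That scale differs both in the scaling and in the value added before the logarithm, and which of these removed the overlap was not tested. Atf4 itself was at 1.17, 1.08 and 1.34 in WT Cold and at 0.85, 0.72 and 1.37 in GCN2 KO Cold, which overlapped on either scale. Library C of GCN2 KO Cold was the highest of its group in both.

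**Figure D4:**
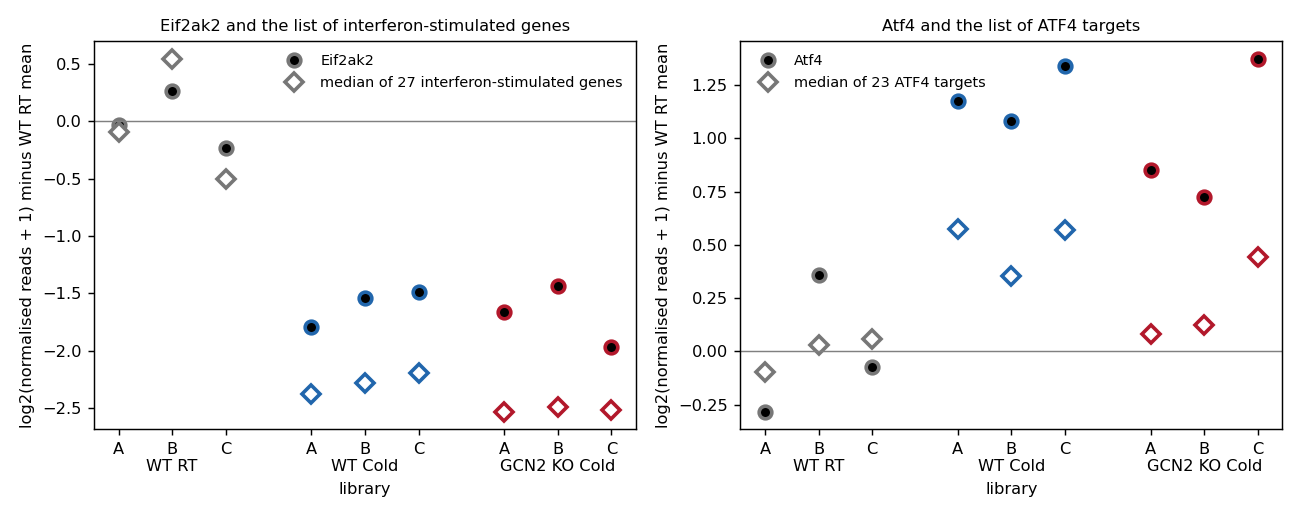
Eif2ak2 beside the median of 27 interferon-stimulated genes, and Atf4 beside the median of 23 ATF4 targets, in each of the 9 libraries, as log2(normalised reads + 1) minus the WT RT mean. Eif2ak2 lies at or below -1.44 in the 6 cold libraries. The ATF4 targets lie between 0.36 and 0.58 in WT Cold and between 0.083 and 0.44 in GCN2 KO Cold, which overlap on this scale and not as log2(CPM + 1).

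Lists tied to PERK and HRI had called genes in both directions. Of 15 unfolded protein response genes, 4 were higher and 4 lower in WT Cold than in WT RT, against 13.6% and 14.1% of all genes, with a median of -0.04. The chaperone partner Dnajb9 (0.82) and the secreted factor Manf (0.70) rose and the disulfide isomerases Pdia4 (-0.74) and Pdia6 (-0.63) fell. Against WT RT, GCN2 KO Cold had 3 higher and 4 lower, beside 16.4% and 17.8% of all genes, with Manf at 1.05, Dnajb9 at 0.68, Pdia4 at -0.90 and Pdia6 at -0.70. Under library-total scaling the counts were 2 higher and 4 lower in WT Cold, and 2 higher and 8 lower in GCN2 KO Cold with a median of -0.39.

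Of 10 genes of heme synthesis and breakdown, 3 were higher and 3 lower in WT Cold than in WT RT, against 13.6% and 14.1% of all genes, with a median of -0.06. The heme oxygenases Hmox1 (1.08) and Hmox2 (0.67) rose and the synthesis enzymes Alad (-0.62) and Ppox (-0.45) fell. For GCN2 KO Cold the counts against WT RT were 4 higher and 2 lower, beside 16.4% and 17.8% of all genes, with Hmox2 at 0.72, Hmox1 at 0.68, Alad at -0.40 and Ppox at -0.34. Under library-total scaling these became 3 higher and 4 lower for WT Cold and 2 higher and 4 lower for GCN2 KO Cold, so that the balance of the latter turned. Erythroid markers, of which 5 of 6 were called higher than WT RT for WT Cold and 6 of 6 for GCN2 KO Cold, moved beside these genes, and their part was not tested. Between both cold groups, limma called 0 genes of the 5 lists other than the ATF4 targets. At an unadjusted p under 0.05, where all genes had 7.83% higher and 7.49% lower, their counts higher and lower were 0 and 0 for eIF2 and eIF2B, 0 and 2 for the regulators, 1 and 4 for the interferon-stimulated genes, 1 and 2 for the unfolded protein response and 4 and 1 for heme. DESeq2 called 1 of these genes, Urod (0.33, adjusted p = 0.0498), a heme synthesis enzyme.

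The genes whose pattern over the 9 libraries lay nearest to each called member were found by the mean absolute difference of centred log2 CPM values, a measure of likeness over 10527 genes that carries no test. For Eif2ak2 these were Parp9 (0.0803), Gbp2 (0.0869) and Irgm2 (0.0898), against a median of 0.724 over all genes. For Atf4 they were Dnajc27 (0.134), Chka (0.134) and Acot4 (0.137), against 0.497. For Ppp1r15a they were Pkig (0.107), Zc3h10 (0.123) and Fosl2 (0.125), against 0.377, and for Ppp1r15b Zzz3 (0.0331), Polr3e (0.0370) and Zfp598 (0.0421), against 0.213. For Eif2ak4 they were Pts (0.114), Idi1 (0.119) and Gpx4 (0.122), against 0.336.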

How the data were processed

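Poly(A) RNA of brown adipose tissue was sequenced from 9 mice in 3 groups. Per the submitters' notes and methods, reads were trimmed with Trimmomatic 0.36, aligned with STAR 2.5.2b, counted with featureCounts of Subread 1.5.2 and compared with DESeq2, on build GRCm39. Whether counting used strand is not given in the sources used here. The deposited signal is the number of reads of a gene scaled by the authors with a size factor for each library of a table, in 3 tables, and 100% of values gave back whole reads, within 0.0001 of a read. Further deposited columns give log2 fold changes of the same comparisons and their deposited p-values, and neither was used. Columns carry library codes without mouse numbers and were assigned to groups by the tables in which they occur.

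Groups were compared with limma 3.58.1 in R 4.3.3 on log2(signal + 1), with a mean-variance trend, a fit of 2 groups for each table, and Benjamini-Hochberg adjustment over all its genes. Alternatives were pseudocounts of 0.5 and 5, a minimum mean of 50, no trend, DESeq2 1.42.0 and edgeR 4.0.16 on recovered reads, library-total scaling, all 3 groups in a fit, and each library left out. The fit of all 3 groups was on log2(CPM + 1), so it changed the scaling and the added value together with the groups. The study's rule was applied to limma's adjusted p unless DESeq2 is named. The steps were tested on simulated data. Levels across tables used recovered reads, and gene models and lengths are from GENCODE M21 on GRCm38, another build than the authors'. From each list, up to 2 called genes per direction with the largest change were named, and for each called member the 3 nearest patterns among genes with a mean CPM of at least 5. Other genes named were the few called by DESeq2 and the overlapping genes, chosen after their values were seen. The size-factor scale for list medians per library and for the kinase sum was added after seeing the data. The members and lists were chosen with earlier results of these data known.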

Additional observations from a re-analysis of the deposited data

How the results depend on the processing

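No paired analysis was possible because the columns carry no replicate numbers. In 21 of 24 pairs of a gene and a group the SD of the 3 libraries on the log2 scale was above the counting error of the reads. It was below it for Eif2ak1 in WT Cold (0.0052 against 0.0367), Eif2ak3 in WT RT (0.0648 against 0.0693) and Eif2ak4 in GCN2 KO Cold (0.0586 against 0.0786). Of 336 fits of a single gene under an alternative, 301 kept direction and side of the threshold, 17 lost the call, 3 gained it and 15 changed sign. The cause of these changes was not tested.

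In WT Cold against WT RT, the study's rule called 1357 genes and leaving out a library gave 2907 to 5679. Of the 8 genes it called 2, no trend called 3, and leaving out a library 3 to 5, with 3 without WT Cold library A or WT RT library B.

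In GCN2 KO Cold against WT Cold, 66 genes were called in the main fit. The count was 6 without the trend, 526 by DESeq2, 428 with all 3 groups on log2(CPM + 1) and 3 to 24 on leaving out a library. The study's rule called 42 on limma's adjusted p, and 26 higher and 183 lower on that of DESeq2. DESeq2 and the fit of all 3 groups each called 1 of the 8. The log2 difference of Eif2ak1 was -0.115 under library-total scaling and -0.112 with all 3 groups. Leaving out a library moved it from -0.041 (without GCN2 KO Cold B) to 0.056 (without A) for Eif2ak1, from -0.21 (without B) to 0.052 (without C) for Eif2ak2 and from -0.12 (without WT Cold B) to 0.059 (without WT Cold A) for Eif2ak3.

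In GCN2 KO Cold against WT RT, the study's rule called 1754 genes and 1 of the 8, and leaving out a library 4220 to 5261 genes and 2 to 3 of the 8. Ppp1r15a had an adjusted p of 0.0736 without the trend and 0.135 with all 3 groups. Under library-total scaling, and then with all 3 groups, the log2 difference was -0.074 and -0.072 for Eif2ak1, -0.0113 and -0.0109 for Eif2ak4, -0.0647 and -0.0644 for Ppp1r15b and -0.085 and -0.082 for Impact, none called.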
